A study of Solanum lycopersicum with 9 samples.

Results

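Nuclear genes of photosynthesis and photorespiration, 5 in number, were followed through 4 stages of tomato (Solanum lycopersicum) fruit ripening: CAB4, a chlorophyll a/b binding protein, LOC101263732, photosystem I subunit V, RBCS-1 and RBCS-2A, small subunits of Rubisco, and GLO2, a glycolate oxidase. They were all the genes of the array's annotation whose symbol begins with CAB and a number or hyphen, with LHC or with RBCS, together with GLO2 and LOC101263732, which were named individually. Each of the 5 genes had 1 probe set, out of 67795 on the array, of which 23194 carry 1 gene symbol. GLO2 and LOC101263732 stand on the study's own list of strongly changed genes, so that their presence here is not independent of how they behaved on these arrays.

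Expression was measured on Affymetrix TomGene ST 1.1 array strips in fruit of wild type cultivar Ailsa Craig plants grown hydroponically in a greenhouse, with 3 arrays of red ripe fruit and 2 of each earlier stage, breaker, turning and pink. Breaker is the stage at which the first colour shows on a green fruit, turning and pink follow, and at red ripe the whole fruit is red. All samples are labelled pericarp, the wall of the fruit, whereas the methods name fruit tissue and in 1 sentence abscission zones. The values are log2 signals from the RMA method, and a difference of 1 on this scale is a fold of 2. Levels of different genes are not set against each other, because each probe set binds with its own strength.

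In green fruit, chloroplasts of the pericarp carry out photosynthesis, and during ripening they turn into chromoplasts, which store carotenoids while chlorophyll and thylakoids are lost. Chlorophyll a/b binding proteins hold the antenna pigments that pass light energy to the photosystems, subunit V is a small membrane protein of photosystem I, and the small subunit completes the Rubisco enzyme that fixes CO2. When Rubisco takes oxygen in place of CO2, glycolate oxidase in the peroxisome acts in the salvage route called photorespiration. All of these proteins are encoded in the nucleus, while core subunits of both photosystems are encoded in the plastid.

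The median signal of all probe sets was between 1.78 and 2.01 on every array, highest at turning and pink, so that a signal near 2 lay in the middle of the scale and could not be told from background. Among markers of ripening fruit, 6 of 8 were matched, and their mean signal per array was 6.57 to 6.74 in breaker fruit, 6.37 to 6.41 in turning fruit, 7.04 to 7.14 in pink fruit and 7.78 to 7.89 in red ripe fruit. PG2, the polygalacturonase of softening fruit, was 11.25 to 11.44 at red ripe, against 9.09 and 9.50 at breaker, while ACO1, an ethylene-forming oxidase, was at background on all arrays (1.31 to 1.82). Relative to breaker, 2 of the 6 had fallen at turning, EXP1 and Psy1, and 2 had risen, PG2 and Cel2. Of all probe sets 6.8% and 1.46% did so, by the thresholds given below. EXP1 was 4.30 and 5.13 at breaker, 1.42 and 1.74 at turning, 1.12 and 1.57 at pink, and 4.89 to 5.05 at red ripe. Psy1 was 9.42 and 9.43 at breaker and 7.99 and 8.60 at turning. For the epidermis and cuticle, 4 of 5 markers were matched, with means of 6.10 to 6.15 in breaker fruit, 5.23 to 5.44 in turning fruit, 5.62 to 5.76 in pink fruit and 3.25 to 3.59 in red ripe fruit. Abscission zone markers (4 of 5 matched) averaged 2.38 to 2.89, 2.08 to 2.30, 2.68 to 2.77 and 2.36 to 2.63 at those stages. These low means hide a difference between the genes. TAPG2 was at background throughout (1.01 to 1.25), and TAPG4 (1.05 to 2.94) and cel5 (1.56 to 2.35) stayed low. Cel1 was well above background in breaker fruit (5.16 and 6.99) and again in red ripe fruit (5.15 to 5.94). Its pink arrays read 5.76 and 6.07, and its turning arrays only 2.95 and 3.14. Of the epidermal markers 4 of 4 had fallen at red ripe relative to breaker, against 1.24% of all probe sets. Red ripe was also the stage at which GLO2 and LOC101263732 were lowest, and the part of the epidermis in those values was not tested. In bulk tissue, fewer cells of a type and less RNA per cell cannot be told apart.

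Stages were compared with limma in 1 fit to all probe sets and arrays, and a gene was said to have fallen or risen at a Benjamini-Hochberg adjusted p under 0.05 over all 67795 probe sets together with a fold over 2. At turning 2 of the 5 genes had fallen relative to breaker, CAB4 and LOC101263732, where 6.8% of all probe sets had fallen. At pink 3 of the 5 had fallen, GLO2 being added, against 5.53% of all probe sets. At red ripe CAB4, LOC101263732 and GLO2, 3 of the 5, had fallen relative to breaker, against 1.24% of all probe sets. Between neighbouring stages 1 gene fell at pink relative to turning, where 0.532% of all probe sets did, and 2 fell at red ripe relative to pink, where 1.32% did. None of the 5 rose in any of the 5 comparisons, nor did any at an unadjusted p under 0.05. The shares of all probe sets that had risen were 1.46% for turning, 1.25% for pink and 1.49% for red ripe relative to breaker, 1.12% at pink relative to turning and 7.76% at red ripe relative to pink. The median log2 fold change of the 5 genes was -0.61 for turning, -1.91 for pink and -2.45 for red ripe, where that of all probe sets was 0.12, 0.09 and 0.01. GLO2 and LOC101263732 were named from a list of strongly changed genes on these arrays, which partly fixes these counts and medians. With 5 genes these counts describe the members and say nothing of the family as a whole, since the RefSeq gene table lists 17 CAB or LHC genes, of which 3 had a probe set named on this array, and 4 RBCS genes, of which 2 did.

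**Figure D1:**
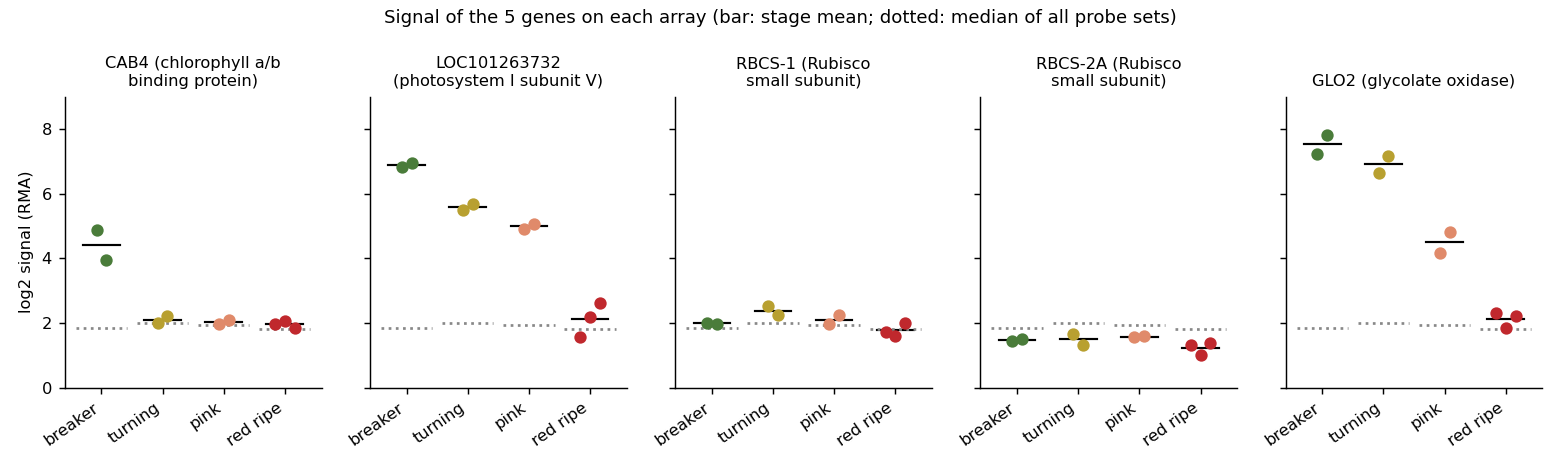
Log2 signal (RMA) of the 5 genes on each of the 9 arrays, by stage. Each point is an array, the bar is the stage mean and the dotted line is the median of all probe sets at that stage. CAB4 sat near the median from turning onwards, LOC101263732 and GLO2 reached it at red ripe, and both RBCS probe sets stayed near or under it at all 4 stages.

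CAB4, which encodes a light-harvesting antenna protein, was above background only at breaker. Its log2 signal was 4.86 and 3.96 on the breaker arrays, 1.99 and 2.21 at turning, 1.97 and 2.08 at pink, and 1.98, 2.06 and 1.83 at red ripe. Both breaker arrays lay above every later array, and the later stages overlapped one another. At turning the log2 fold change relative to breaker was -2.31 ± 0.26 (SE), a signal 4.96-fold lower (limma adjusted p = 0.000715). At pink the signal was 5.22-fold lower than at breaker (adjusted p = 0.000704), and at red ripe 5.48-fold lower (log2 fold change -2.45, adjusted p = 0.00068). Pink differed from turning by -0.07 (95% interval -0.67 to 0.52) and red ripe from pink by -0.07 (-0.61 to 0.48). Since the signal after breaker lay between 50.2% and 63.6% of the way up the ranked probe sets of its array, the size of the fall is limited by the background and the fold may be larger than measured. The breaker arrays had the widest spread of the gene at any stage (SD 0.64), and with either of them left out CAB4 was still called at all 3 later stages.

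LOC101263732, the small membrane subunit of photosystem I, had a lower mean at each successive stage. On the 2 breaker arrays it read 6.83 and 6.95, on the turning arrays 5.50 and 5.69, on the pink arrays 4.90 and 5.07, and on the red ripe arrays 1.55, 2.17 and 2.62. No array of one stage overlapped an array of another. Turning was 2.45-fold lower than breaker (log2 fold change -1.29 ± 0.29 (SE), limma adjusted p = 0.0213). This first call was the least secure of the gene: the change at turning was -0.74 (adjusted p = 0.179) after quantile normalization and -0.71 (adjusted p = 0.251) after cyclic loess, and the adjusted p was 0.085 with array weights, 0.0905 without breaker replicate 1, 0.13 without breaker replicate 2 and 0.0778 without turning replicate 1. Pink lay 3.75-fold under breaker (log2 fold change -1.91, adjusted p = 0.0039). At red ripe the signal was 27.4-fold lower than at breaker (-4.78 ± 0.27, adjusted p = 3.41e-05), the 7th lowest log2 fold change among all 67795 probe sets. The gene was named from the study's list of strongly changed genes on these arrays, which partly fixes this rank. Between pink and turning the difference of -0.61 did not pass the test (95% interval -1.28 to 0.06, adjusted p = 0.394), whereas red ripe was 7.32-fold lower than pink (-2.87, adjusted p = 0.000166). The lowest red ripe array stood at 28.8% of the ranked probe sets and the highest at 75.5%, so that part of the red ripe values was at background.

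GLO2, whose enzyme oxidizes glycolate in photorespiration, fell at pink and again at red ripe, with no change past the test at turning. Its values were 7.23 and 7.81 at breaker, 6.65 and 7.17 at turning, 4.16 and 4.82 at pink, and 2.32, 1.83 and 2.21 at red ripe. The turning arrays lay under the breaker arrays without overlap but close to them, and the pink and red ripe arrays each formed a separate lower step. At turning the log2 fold change relative to breaker was -0.61 ± 0.30 (SE; 95% interval -1.30 to 0.08, adjusted p = 0.238), which did not pass. After cyclic loess normalization that value was -0.02. Pink fruit was 8.17-fold lower than breaker fruit (-3.03, adjusted p = 0.00044) and 5.35-fold lower than turning fruit (-2.42, adjusted p = 0.00669). The call of pink relative to turning was lost with array weights (adjusted p = 0.0949) and in a fit of only those stages (adjusted p = 0.106). Red ripe fruit was 5.17-fold lower than pink (-2.37, adjusted p = 0.000515) and 42.2-fold lower than breaker (-5.40 ± 0.28, adjusted p = 2.29e-05). That last value was the 2nd lowest log2 fold change of all 67795 probe sets, and the red ripe arrays lay between 52.6% and 69.5% of the ranked probe sets, in the range of background. GLO2 was named from the study's list of strongly changed genes on these arrays, so that its rank follows in part from that choice.

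The course of the 3 genes that fell can be set out as the share of the measured fall completed by each stage. Of the whole fall on the log2 scale between breaker and red ripe, CAB4 had completed 94.2% by turning and 97.2% by pink. LOC101263732 had completed 27.1% by turning and 39.9% by pink. GLO2 had completed 11.3% by turning and 56.1% by pink. Over 17 other ways of processing the values the share by turning ranged over 89.7% to 103% for CAB4, 14% to 30.7% for LOC101263732 and 0.431% to 16.1% for GLO2. Their order was the same in all 17, but some of these could not have changed it. The low-signal filter, the other moderation and the fits of only the stages compared leave the fold changes as they were. Leaving out a pink array does not touch the share by turning. By pink the ranges were 95% to 103% for CAB4, 45.6% to 62.2% for GLO2 and 28.8% to 42.5% for LOC101263732. These shares are a description with no test. CAB4 was at background from turning on, so that its share is set by that floor and does not show when the transcript reached its red ripe level.

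**Figure D2:**
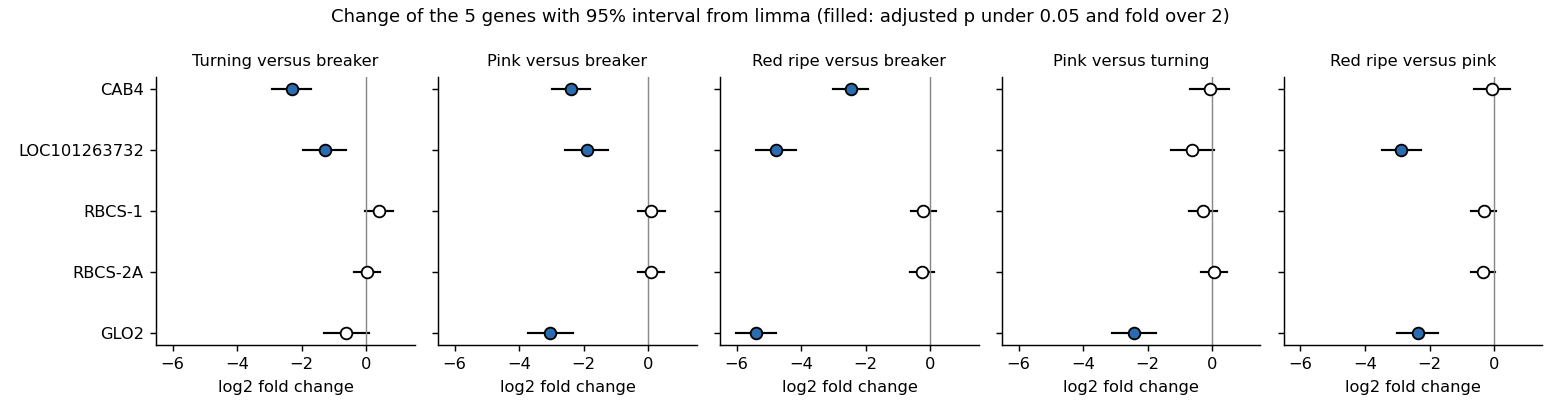
Log2 fold change of the 5 genes in each of the 5 comparisons, later stage over earlier stage, with the 95% interval from limma. Filled points passed an adjusted p under 0.05 and a fold over 2. CAB4 changed in all 3 comparisons with breaker and in neither of the others, GLO2 in every comparison except turning versus breaker, and the intervals of both RBCS genes included 0 throughout.

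The Rubisco small subunit genes gave no signal that could be read as a level. RBCS-1 had log2 signals of 2.01 and 1.96 at breaker, 2.51 and 2.25 at turning, 1.95 and 2.23 at pink, and 1.72, 1.58 and 2.01 at red ripe, between 34.5% and 71.8% of the ranked probe sets of the array. RBCS-2A had 1.44 and 1.51 at breaker, 1.67 and 1.33 at turning, 1.56 and 1.58 at pink, and 1.32, 1.01 and 1.37 at red ripe, between 1% and 27.5%. Arrays of the stages compared overlapped in 3 of the 5 comparisons for RBCS-1 and in 2 of 5 for RBCS-2A. Relative to breaker the log2 fold change of RBCS-1 was 0.40 at turning (95% interval -0.03 to 0.82), 0.10 for pink and -0.21 for red ripe (-0.60 to 0.17, limma adjusted p = 0.892). That of RBCS-2A was 0.03 for turning, 0.10 for pink and -0.24 for red ripe (-0.61 to 0.13, adjusted p = 0.776). A change in these genes was not detectable at signals of this height, which does not show that they did not change. Small subunit genes of one family are near-identical in sequence, as are many CAB genes, and how the array's probes divide among the copies was not examined, so that the assignment of each probe set to its gene is uncertain.

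Set beside these, 15 other nuclear genes of photosynthesis, chlorophyll metabolism and photorespiration with a named probe set were read from the same fit. They showed 1 fallen and 2 risen at turning, 0 fallen and 3 risen at pink, and 4 fallen and 0 risen at red ripe, each relative to breaker. The shares of all probe sets fallen and risen were 6.8% and 1.46% at turning, 5.53% and 1.25% at pink, and 1.24% and 1.49% at red ripe. Relative to turning, 0 had fallen and 2 risen at pink, against 0.532% and 1.12% of all probe sets. Relative to pink 7 had fallen and 0 risen at red ripe, against 1.32% and 7.76%. The 5 genes above had median log2 fold changes relative to breaker of -0.61, -1.91 and -2.45 at the later stages in turn, where the 15 had -0.14, 0.01 and -0.51, but 2 of the 5, GLO2 and LOC101263732, were named from a list of strongly changed genes on these arrays, which partly fixes that difference. The 15 were picked by role and are not complete: LOC101253342, described by the study as a chloroplast ATP synthase gamma chain, is not among them. They include SGR1, a gene of chlorophyll breakdown. GLK1, GLK2 and LOC101264286, all at background, enter their medians, as RBCS-1 and RBCS-2A enter those of the 5.

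Among the 5 photosystem subunits of this wider list, psaD, PSBP and PsbQ had fallen at red ripe relative to pink, PSBP on the edge of the fold threshold, and PSBO and PSBR had not. psaD, a stromal subunit of photosystem I that docks ferredoxin, was 10.12 and 10.18 at breaker, 8.75 and 9.28 at turning, 9.13 and 9.22 at pink, and 7.17, 7.05 and 7.27 at red ripe. It was 2.20-fold lower at turning than at breaker (log2 fold change -1.14, limma adjusted p = 0.00469), a call lost without turning replicate 1 (-0.87), after cyclic loess normalization (-0.93) and in a fit of only those stages (adjusted p = 0.0562), and at red ripe it was 7.93-fold lower (-2.99, adjusted p = 3.66e-05). At red ripe psaD remained far above the array median on all 3 arrays. PsbQ, an extrinsic protein of the oxygen-evolving complex of photosystem II, was 5.92 and 5.81 at breaker, 4.29 and 5.07 at turning, 4.57 and 5.54 at pink, and 1.89, 2.13 and 1.71 at red ripe. Its change was -1.19 at turning (adjusted p = 0.0549) and -0.81 at pink (adjusted p = 0.204), neither passing the test, and at red ripe it was 15.5-fold lower than at breaker (-3.96, adjusted p = 0.000202) and 8.85-fold lower than at pink (-3.15, adjusted p = 0.000216). The red ripe arrays of PsbQ lay at 53%, 66% and 41.8% of the ranked probe sets, in the range of background, so that both folds are limited by it and may be larger than measured. PSBP, another extrinsic protein of that complex, averaged 5.85 at red ripe and 6.85 at breaker (adjusted p = 0.00412), just short of the fold threshold, and relative to pink it was just past it, a call that held in 5 of 17 alternatives. PSBO, of the oxygen-evolving complex, changed relative to breaker by -0.81 at turning (adjusted p = 0.0495, a fold of 1.75), -0.51 at pink (adjusted p = 0.23) and -0.51 at red ripe (adjusted p = 0.344), and by 0.01 at red ripe relative to pink (adjusted p = 0.991). PSBR changed at red ripe relative to breaker by -0.18 (adjusted p = 0.92).

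A pair of further chlorophyll a/b binding protein genes, which the array names only by number and RefSeq lists as Cab-1C (LOC101264286) and CAB3A or CAB3B (LOC101267774), were on the array. LOC101267774 read 2.89 and 2.41 at breaker, 5.82 and 5.75 at turning, 5.36 and 5.91 at pink, and 1.78, 1.56 and 1.79 at red ripe. Turning and pink thus lay above all breaker and red ripe arrays. The probe set rose at turning relative to breaker by 3.13 ± 0.22 (SE) on the log2 scale, or 8.78-fold (limma adjusted p = 7.89e-05), the 22nd highest change of all probe sets, at the stage where CAB4 had fallen. At pink it was 7.92-fold higher than at breaker (2.98, adjusted p = 0.000113), and at red ripe 15.2-fold lower than at pink (-3.92), a fold limited by background, since the red ripe arrays lay at 32.9% to 47.8% of the ranked probe sets. Red ripe differed from breaker by -0.94 (adjusted p = 0.0402), short of the fold threshold. A second probe set of the same gene did not show this course: it had 1.23 and 1.26 at breaker, 2.05 and 1.90 at turning, 1.43 and 1.33 at pink, and 1.44, 1.37 and 1.06 at red ripe, with a change of 0.73 at turning (adjusted p = 0.0201), 0.14 for pink and 0.04 for red ripe. The 2 probe sets disagree, the second being close to background, and which of them reads the gene cannot be told apart here. LOC101264286 stayed at background (1.39 to 2.09 over the 9 arrays), where its course cannot be read, with fitted changes of 0.56 for turning, 0.53 for pink and 0.23 for red ripe.

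Genes around the photosystems took several courses. SEND33, a ferredoxin that carries electrons from photosystem I, had 7.12 and 7.06 at breaker, 6.08 and 6.17 at turning, 6.93 and 7.55 at pink, and 5.38, 5.10 and 5.15 at red ripe. It was 3.68-fold lower at red ripe than at breaker (-1.88, limma adjusted p = 0.000833), while its change of 1.11 at pink relative to turning (adjusted p = 0.0326) passed in 5 of the 17 alternatives. Of the catalases, which break down the hydrogen peroxide that glycolate oxidase makes, cat1 was 8.76, 8.28 and 8.77 at red ripe, against 9.84 and 9.95 at breaker. It fell 2.45-fold at red ripe relative to breaker (-1.29, adjusted p = 0.00366; 0.0537 without breaker replicate 2), at a stage where GLO2 was at background. CAT2 changed by 0.42 at red ripe relative to breaker (adjusted p = 0.404) and by 0.94 relative to pink (adjusted p = 0.00947), short of the fold threshold. SBPase, a Calvin cycle enzyme, changed by -0.61 for turning, -0.67 for pink and -0.20 for red ripe, with no call.

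For chlorophyll itself, a synthesis gene and a breakdown gene were measured well above background. POR2, protochlorophyllide oxidoreductase, which carries out the light-dependent step of chlorophyll synthesis, had 6.76 and 6.72 at breaker, 7.76 and 8.22 at turning, 7.72 and 7.84 at pink, and 6.07, 6.14 and 5.58 at red ripe. It was 2.38-fold higher at turning than at breaker (1.25, limma adjusted p = 0.00703; 0.0556 without breaker replicate 2) and 2.06-fold higher at pink (1.04, adjusted p = 0.0197), the pink call being lost without breaker replicate 1 (adjusted p = 0.103), breaker replicate 2 (0.122), pink replicate 1 (0.054) or pink replicate 2 (0.079) and, by the fold threshold, after median centring (0.93). At red ripe it was 3.61-fold lower than at pink (-1.85, adjusted p = 0.000391). SGR1, STAY-GREEN, which promotes the dismantling of chlorophyll and its binding proteins, had 6.63 and 7.24 at breaker, 7.27 and 7.20 at turning, 8.23 and 8.36 at pink, and 7.97, 7.91 and 7.92 at red ripe. It was 2.57-fold higher at pink than at breaker (1.36, adjusted p = 0.00276) and higher by 1.00 at red ripe (adjusted p = 0.0165), on the edge of the fold threshold. Its rise at pink relative to turning (1.06, adjusted p = 0.0311) passed in 6 of 17 alternatives. The regulators of chloroplast development GLK1 (1.43 to 1.84) and GLK2 (1.53 to 2.16) were at background on all 9 arrays.

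**Figure D3:**
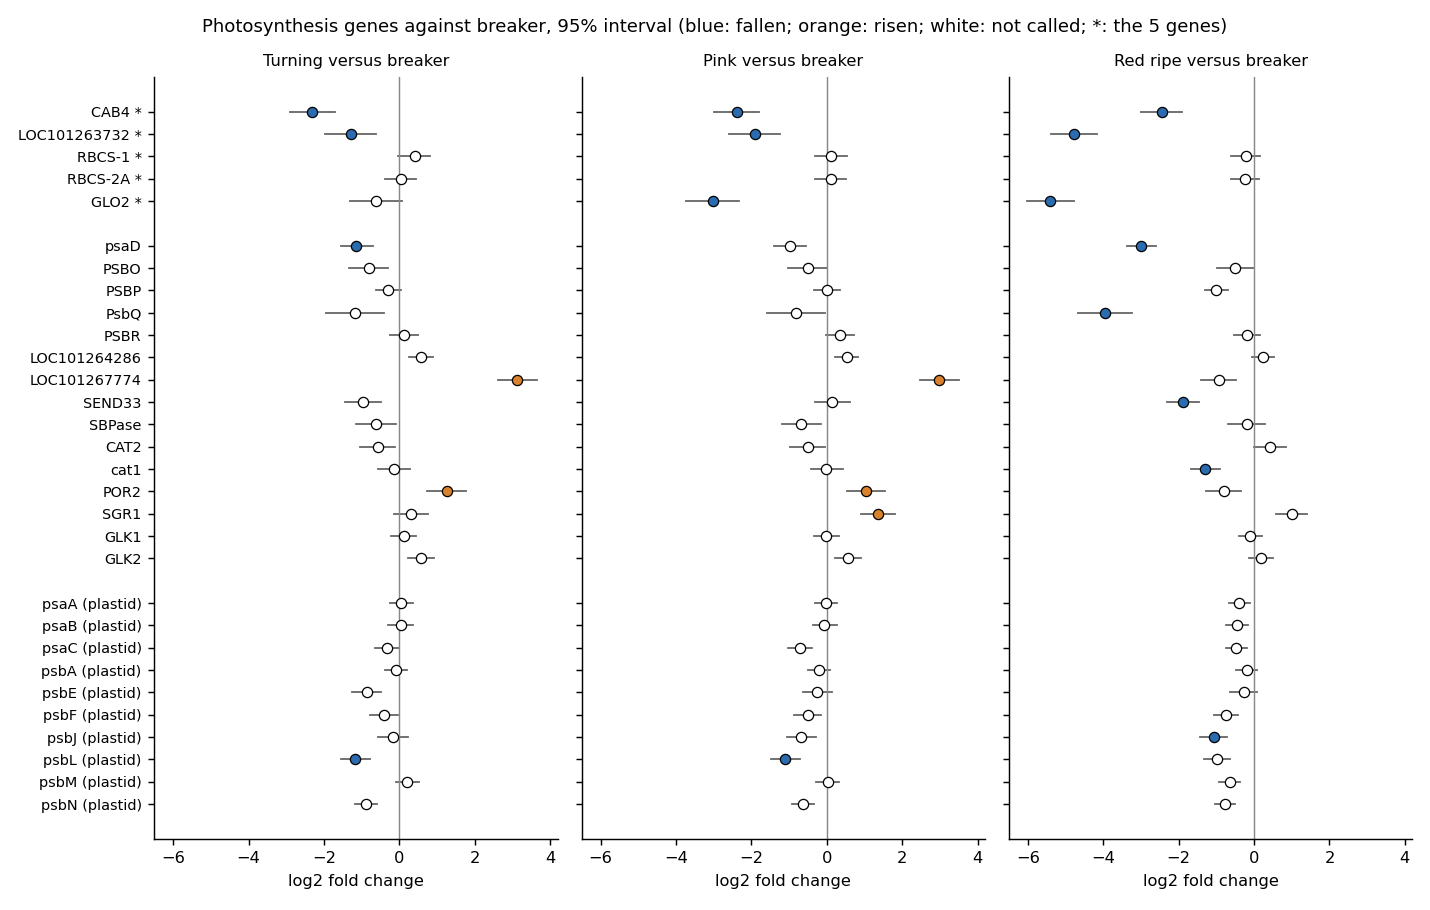
Log2 fold change relative to breaker, with the 95% interval from limma, of the 5 genes (marked *), 15 other nuclear genes and 10 plastid-encoded photosystem genes at turning, pink and red ripe. Blue points had fallen and orange points had risen. At red ripe GLO2 (-5.40), LOC101263732 (-4.78) and PsbQ (-3.96) lay farthest to the left, and the plastid genes lay between -1.07 and -0.19.

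Core subunits of the photosystems encoded in the plastid were read from 10 probe sets. Of these genes psbE had 6 probe sets, psbM 4 and psbN 4. Each was read from the probe set with the highest mean, and the others are not given here. Of 10 measured, 1 had fallen by turning, 1 by pink and 1 by red ripe relative to breaker, and none had risen. Of all probe sets, 6.8%, 5.53% and 1.24% had fallen and 1.46%, 1.25% and 1.49% had risen at these stages. The counts of so few genes are not read as a trait of the plastid genes. Their median log2 fold change was -0.24 for turning, -0.38 for pink and -0.56 for red ripe. psbL, a small subunit of photosystem II, was 2.25-fold lower at turning than at breaker (-1.17, limma adjusted p = 0.00256) and 2.15-fold lower at pink (-1.10, adjusted p = 0.00396; short of the fold threshold at -0.99 without pink replicate 1). psbJ, another of its small subunits, was 2.10-fold lower at red ripe (-1.07, adjusted p = 0.0063), a call lost without breaker replicate 2 (adjusted p = 0.0912) and, on the fold threshold, without red ripe replicate 2 (-0.95). psaA and psbA, the reaction centre proteins of photosystems I and II, differed at red ripe from breaker by -0.39 and -0.19. All 10 gave signals among the brightest on each array, with at least 99% of probe sets lower. The difference between nuclear and plastid genes was not tested.

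Over the 3 comparisons with breaker, the named genes with the course most like a member were found as those with the smallest root mean square difference in log2 fold change among 23193 other probe sets with 1 gene symbol, a rule chosen after the values had been seen. The closest to GLO2 was LOC101263732 (difference 0.84), followed by LOC101246396 (0.89), with changes of -1.46, -4.04 and -4.60 at turning, pink and red ripe. The closest to LOC101263732 were LOC101253342 (0.51), with -1.55, -1.10 and -4.49, and LOC101263369 (0.60), with PsbQ at 0.79. For CAB4 the first was LOC544061 (0.06), with -2.34, -2.41 and -2.54. GLO2, LOC101263732, LOC101246396 and LOC101253342 all stand on the study's list of strongly changed genes on these arrays. Their nearness among all named probe sets is partly fixed by the choice of GLO2 and LOC101263732 from it. The 3 changes share their breaker arrays, so that these distances describe likeness of course and carry no test.

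**Figure D4:**
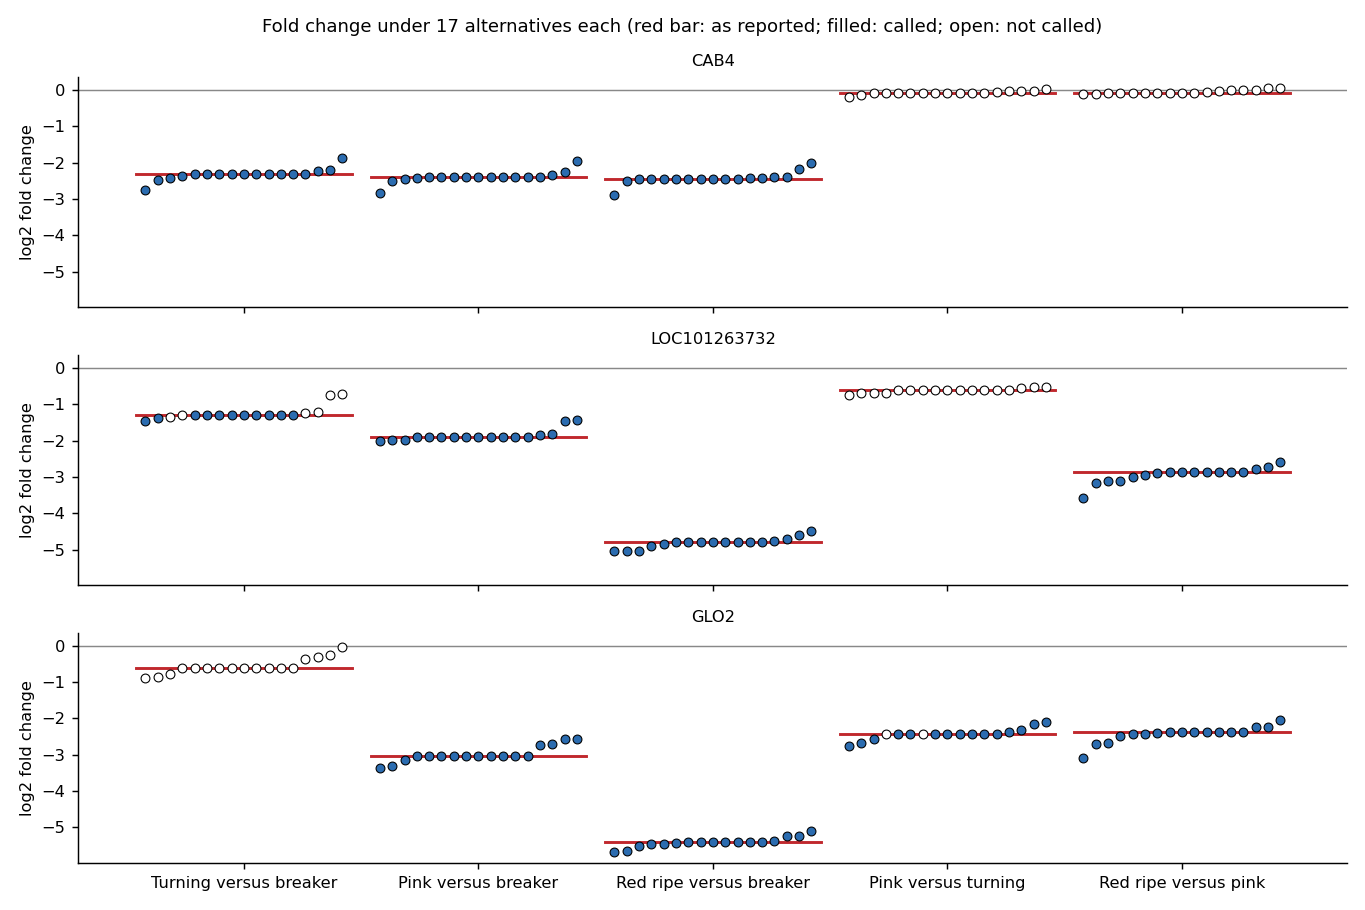
Log2 fold change of CAB4, LOC101263732 and GLO2 in each of the 5 comparisons under 17 alternative ways of processing or fitting the values. Each point is an alternative, filled where the gene was called and open where it was not, and the red bar is the value reported in the text. LOC101263732 at turning was called in 11 of 17 and GLO2 at pink relative to turning in 15 of 17, while all 3 genes were called in all 17 at pink and at red ripe relative to breaker.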

How the data were processed

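The deposited values are log2 signals per probe set that the authors computed by RMA in the Affymetrix Expression Console software. The submitters' processing notes also name Transcriptome Analysis Console 2.0. RMA includes background correction and normalization across arrays, but whether all 9 arrays were normalized together is not stated. The upper signals were not level across stages. The p90 signal, which most probe sets of an array lay under, was 5.09 and 5.15 at breaker and 4.17 and 4.51 at turning. It was 4.4 and 4.55 at pink, and 5.24 to 5.43 at red ripe. Quantile normalization, which levels these signals, was one of the alternatives listed below. With it the share of the fall completed by turning was 16.1% in place of 27.1% for LOC101263732 and 4.87% in place of 11.3% for GLO2. For CAB4 it was 103% in place of 94.2%. The part of the uneven upper signals in the fold changes was not tested further. For the main fit the deposited values were neither renormalized nor filtered, and the probe intensities behind them were not used here. The 4 stage means were estimated jointly from the 9 arrays in R 4.3.3, with limma 3.58.1 and statmod 1.5.0, leaving 5 residual and 3.65 prior degrees of freedom. The methods state 2 independent biological replicates per stage, without saying whether they came from separate plants. The p-values therefore measure only the spread between these samples. Red ripe has 3 arrays, all used. The methods name an RNeasy kit where the labels name PureLink. Symbols came from the array annotation, with names of further CAB genes from RefSeq synonyms. A gene with several probe sets was read from the one with the highest mean. All members were named, and of each pathway role the genes with the smallest adjusted p. The members and gene lists were chosen with earlier results of these data known. The fit was tried on simulated data in which each probe set had the same spread at every stage. That trial says nothing of unequal spread between stages. No sequence table was at hand, so promoter motifs were not analysed here. Alternatives were a replicate block, leaving out each array, other normalizations, a low-signal filter, other moderation, array weights, only the stages compared and other thresholds.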

Additional observations from a re-analysis of the deposited data

How the results depend on the processing

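Across 17 alternatives, the fold changes of the 5 genes that had been called kept their direction and call in 179 of the 187 gene, comparison and alternative combinations, and 8 kept the direction but lost the call. The number of genes fallen at turning was 1 in place of 2 after quantile normalization, cyclic loess normalization and with array weights, and 1 to 2 when each array was left out in turn, in each case through LOC101263732. The number fallen at pink relative to turning was 0 in place of 1 with array weights and with only the stages compared, through GLO2. The replicate block left the counts at 2, 3 and 3 relative to breaker, 1 at pink relative to turning and 2 at red ripe relative to pink. Same-numbered arrays deviated from their stage means with correlations of -0.00786 to 0.0904, so that little shared deviation was seen. Whether the samples were paired cannot be told from this, since the 2 arrays of a stage deviate by equal and opposite amounts. Values that had not been called changed sign as follows. CAB4 at red ripe relative to pink was 0.07 after median centring and 0.07 after quantile normalization, and at pink relative to turning it ranged over -0.18 to 0.04 with an array left out. RBCS-1 at pink relative to breaker was -0.01 after median centring, -0.02 after quantile normalization and -0.01 after cyclic loess, and -0.04 to 0.24 with an array left out. RBCS-2A at turning relative to breaker was -0.14 after median centring, -0.06 after quantile normalization and -0.13 after cyclic loess, and -0.14 to 0.20 with an array left out. RBCS-2A at pink was -0.02 after median centring and -0.03 after cyclic loess relative to breaker, and -0.10 to 0.24 relative to turning with an array left out. For LOC101267774 at red ripe relative to breaker the main probe set gave -0.94, short of the fold threshold. The second probe set, chosen after seeing the data, gave 0.04. Of the 15 other nuclear genes, the number fallen relative to breaker ranged from 0 to 4 for turning, 0 to 2 for pink and 4 to 7 for red ripe over the alternatives that kept the thresholds. The causes were not tested.

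The weights limma gave to the arrays, smaller where an array scatters more, were 2.21 for breaker, 0.397 for turning, 0.573 for pink and between 0.904 and 2.11 for red ripe, so that the pooled spread may be too small for comparisons with turning and pink. Array medians were on average 0.165 higher at turning than at breaker, and median centring takes that difference out of every probe set. The low-signal filter, which drops 33.3% of probe sets, removed RBCS-2A, which has no value there. Averaging the probe sets of a gene was not run, since each of the 5 has 1. Signals near background limit every fold given at red ripe for GLO2, LOC101263732, PsbQ and LOC101267774 and after breaker for CAB4.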
